A study of Rattus norvegicus with 6 samples.

Results

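Heat shock proteins are molecular chaperones that hold, fold or disaggregate other proteins, and J-domain proteins (DNAJ) are the co-chaperones that bring clients to Hsp70 and start its ATP hydrolysis. The genes described here were taken by symbol, as those beginning with Hspa, Hspb, Hspd, Hspe, Hsph, Hsp90, Dnaja, Dnajb or Dnajc, without Hspa5 and Hsp90b1. They were 71 of the 40456 genes in the count table, 26 outside DNAJ and 45 DNAJ genes. The letters Hspb also start Hspbp1 and Hspbap1, which encode binding partners of heat shock proteins and not small heat shock proteins, and these were kept as a group of their own. A total of 64 genes had enough counts to be tested, and 7 did not.

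The data were poly-A RNA sequencing libraries of H9c2 (2-1), a rat heart-derived myoblast line labelled with the genotype WT and the cell type cardiomyocyte. Both groups had 5 days of differentiation in medium with 1% serum and 1 µM retinoic acid, and then a locked nucleic acid gapmer at 25 nM for 24 h, given with Lipofectamine. A gapmer is an antisense oligonucleotide that leads RNase H to its target. The control group received the negative control gapmer (3 libraries) and the knockdown group the Tug1 gapmer (3 libraries), Tug1 being a long non-coding RNA. Each arm rests on a single oligonucleotide sequence, so an effect of lowering Tug1 and an effect of that oligonucleotide itself cannot be told apart in these groups. The labels do not say whether replicates were separate cultures, so p-values measure the spread between these libraries, which may be technical. Both sequences are shown because every comparison is between them, 5′ to 3′ as the labels give them.
Tug1 gapmer: attcagtagacagcta
Negative control gapmer: gctcccttcaatccaa

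In the cytosol, Hsp70 passes clients on to Hsp90, Hsp110 proteins reload Hsp70 with ATP, and small heat shock proteins hold unfolded clients until Hsp70 takes them. Mitochondria have their own Hsp70 (Hspa9), its J-domain partner Dnaja3 and the Hsp60 and Hsp10 folding chamber, and the endoplasmic reticulum has J-domain proteins that serve its Hsp70. Part of the family is induced by heat shock factor 1 (HSF1), which binds inverted repeats of the 5-base unit NGAAN, the heat shock element. In muscle, small heat shock proteins and J-domain proteins such as Dnajb6 are known for guarding the contractile apparatus, and mutations in Dnajb6 cause muscular dystrophy.

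Since HSF1 acts through the promoter, the promoter windows of the members were searched for the element. RefSeq promoter sequences (assembly GRCr8, 250 bases before to 50 after the annotated start, 300 in all) were matched by symbol for 56 of the 71 genes. The remaining genes, among them Hsp90aa1, Dnaja2, Dnajb4 and Dnajc8, had no window and were not searched, so nothing is known here of their elements. A run of 3 units was GAA, TTC and GAA in that order with any bases (NN) between neighbours, or the same run read on the other strand, which begins and ends with TTC. A pair of units was GAANNTTC or TTCNNGAA, each its own reverse complement and each also part of every longer run. A run of 3 units was found in 5 of 56 member windows (8.93%), against 0.798% of all 33469 windows in the table. A pair was found in 16 member windows (28.6%), against 15.9% of all windows. The windows with 3 units were those of Hspa8, Hspd1, Hspe1, Hsph1 and Dnaja1. Hspd1 and Hspe1 lie head to head, their windows overlap, and both matches are the same stretch of DNA. The sequences below show these matches, with the bases of the GAA and TTC units in capitals, and add Dnajb1, a heat-inducible gene whose window holds only pairs. In windows with a run of 3 units only such runs are in capitals. Further pairs, starting at base -105 in Hsph1 and -181 in Dnaja1, stay in lower case. They run 5′ to 3′ in the direction of the gene. The windows are chr8:50080264-50080563 on the plus strand for Hspa8, chr9:64083988-64084287 on the minus strand for Hspd1, chr12:10427118-10427417 on the plus strand for Hsph1, chr5:60638154-60638453 on the plus strand for Dnaja1 and chr19:41431092-41431391 on the minus strand for Dnajb1 (GRCr8, RefSeq).
Hspa8: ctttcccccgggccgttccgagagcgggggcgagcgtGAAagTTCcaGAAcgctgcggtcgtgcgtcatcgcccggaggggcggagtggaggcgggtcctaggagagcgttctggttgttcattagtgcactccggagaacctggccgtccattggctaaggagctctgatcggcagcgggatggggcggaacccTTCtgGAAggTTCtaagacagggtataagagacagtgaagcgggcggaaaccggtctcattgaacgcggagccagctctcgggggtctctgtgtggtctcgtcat
Hspd1: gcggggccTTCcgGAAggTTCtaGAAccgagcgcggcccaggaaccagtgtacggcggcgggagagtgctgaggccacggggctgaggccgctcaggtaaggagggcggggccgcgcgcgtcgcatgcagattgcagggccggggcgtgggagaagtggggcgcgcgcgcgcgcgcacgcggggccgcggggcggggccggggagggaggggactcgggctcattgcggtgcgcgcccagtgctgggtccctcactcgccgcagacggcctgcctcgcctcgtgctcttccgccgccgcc
Hsph1: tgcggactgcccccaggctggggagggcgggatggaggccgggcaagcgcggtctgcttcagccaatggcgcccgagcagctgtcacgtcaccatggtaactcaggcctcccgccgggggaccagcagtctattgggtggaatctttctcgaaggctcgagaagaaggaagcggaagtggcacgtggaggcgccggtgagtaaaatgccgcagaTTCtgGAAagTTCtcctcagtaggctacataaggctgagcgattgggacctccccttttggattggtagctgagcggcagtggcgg
Dnaja1: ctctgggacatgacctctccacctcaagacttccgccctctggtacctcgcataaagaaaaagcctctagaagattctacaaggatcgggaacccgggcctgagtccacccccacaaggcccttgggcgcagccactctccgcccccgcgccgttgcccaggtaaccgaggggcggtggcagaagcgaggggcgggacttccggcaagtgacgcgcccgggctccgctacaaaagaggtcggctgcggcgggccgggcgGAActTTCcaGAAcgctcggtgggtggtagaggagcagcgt
Dnajb1: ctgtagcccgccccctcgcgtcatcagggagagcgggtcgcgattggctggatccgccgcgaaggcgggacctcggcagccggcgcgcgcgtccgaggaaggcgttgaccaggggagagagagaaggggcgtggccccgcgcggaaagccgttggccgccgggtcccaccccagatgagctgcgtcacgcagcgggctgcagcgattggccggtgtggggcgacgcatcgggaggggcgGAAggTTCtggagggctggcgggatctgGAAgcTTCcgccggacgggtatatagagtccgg

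**Figure D1:**
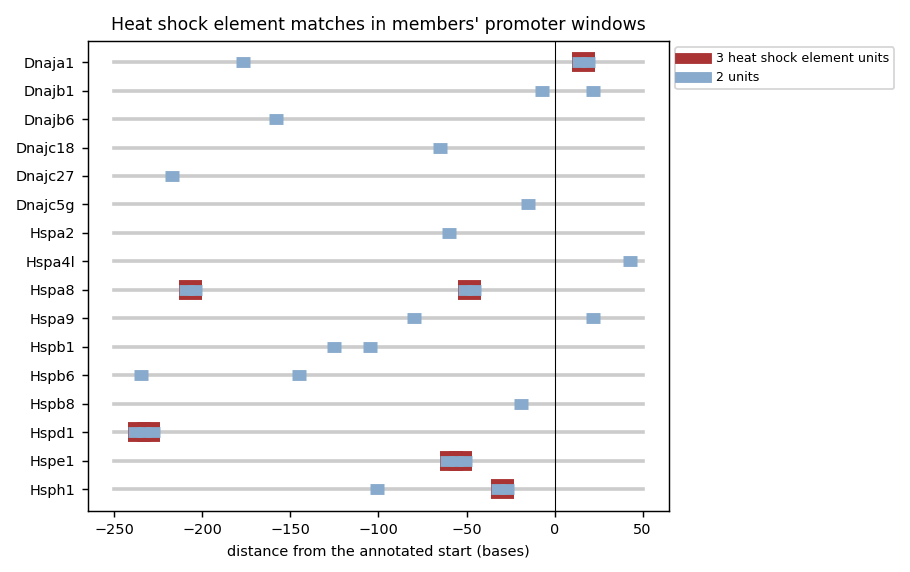
Positions of heat shock element matches in the promoter windows of the members that hold any, in bases from the annotated start (0 on the horizontal axis), with runs of 3 units in red and pairs in blue. Runs of 3 units appear in 5 windows, of which Hspd1 and Hspe1 share 1 stretch of DNA.

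Of the 5 genes whose windows hold the run of 3 units, 3 were called, all of them lower. Among all tested genes 61.7% were called, 30.9% as lower. After knockdown Hspd1, Dnaja1 and Hsph1 were lower, with log2 fold changes of -0.24, -0.29 and -0.11, while Hspa8 was at 0.06 and Hspe1 at -0.01, neither past the threshold. Dnajb1, shown with its 2 pairs, was higher, at 0.31. None of the 16 higher genes with a window held a run of 3 units, against 3 of the 14 lower genes and 2 of the 20 genes that were tested but not called. The stretch shared by Hspd1 and Hspe1 counts in both of the last 2 groups, and Hsph1 passed in 8 of 16 alternatives. A link between the run and the direction was not tested. Of the 24 windows matched for a list of HSF1 targets described further on, 7 of them (29.2%) held the run. These include the 5 member windows named above, since all 5 genes are on that list. These matches are a description of the letters and were not tested as binding sites.

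Total counts were 12978548 to 13544337 per library, and members took 0.905% to 0.971% of them. Levels are given as CPM, counts scaled to library size with edgeR's TMM factors. On this scale 1 CPM was 12.9 to 13.8 counts and the limit that 3 counts allow was 0.217 to 0.232 CPM, which covers counting error only. CPM is not divided by transcript length, so levels of different genes are not compared. Tug1 itself had 54.7, 52.0 and 55.4 CPM in control replicates 1 to 3 and 11.9, 11.2 and 12.5 CPM in knockdown replicates 1 to 3, a log2 fold change of -2.19 ± 0.0786 (standard error; edgeR, adjusted p 4.39e-16). Of the muscle markers all 12 were tested, with 9 higher and 1 lower, and their summed level was 1676 to 1767 CPM in controls and 2229 to 2329.6 CPM after knockdown. Of 10 markers of mature cardiomyocytes 1 was higher and 0 lower of 3 tested, their summed level was at most 16.6 CPM in controls and 15.1 CPM after knockdown, and Myh6, Myh7, Nppa, Nppb, Tnni3, Ryr2 and Nkx2-5 had at most 4 counts in any library. The other 3 were detected in every library, Gata4 with 137 to 179 counts, Actn2 with 11 to 24 and Myl2, the higher one, with 5 to 25. Of the muscle list, Tnnt2 and Actc1, which heart muscle also uses, were detected too, with 4332 to 6051 and 115 to 259 counts. The same list held the skeletal muscle genes Myog, with 3505 to 7067 counts, Myod1, with 594 to 811, and Myh3, with 2197 to 3905. Of the 10 listed markers of the labelled cell type cardiomyocyte, only 3 were therefore found beyond a few counts, and skeletal muscle genes were present beside them. Fibroblast markers, 2 higher and 3 lower of 7 tested, summed to 43814 to 45162 and 41192 to 43997 CPM. Endothelial markers summed to 3.10 to 4.47 and 2.81 to 3.99 CPM, with 0 of 1 tested called, and Pecam1 and Cdh5 had at most 2 counts in any library. Immune markers summed to 4.14 to 6.19 and 7.18 to 9.02 CPM, with Ptprc at 0 counts and Cd68 higher, the only tested gene of that list. In bulk RNA, fewer cells of a type and less RNA per cell cannot be told apart, and the part that these marker differences have in the results below was not tested.

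The comparison asked how chaperone and co-chaperone transcripts differed after Tug1 knockdown. The widest differences were those of single J-domain co-chaperones, with Dnaja3 of the mitochondria at 241% of its control mean, the aggregation suppressor Dnajb6 at 38.2% and Dnajc1 of the endoplasmic reticulum at 36.9%. Of the chaperones, Hsp90ab1 was at 84.3%, Hsp60 (Hspd1) at 84.6% and the constitutive Hsp70 (Hspa8) at 104%, the last without passing the test, while the low-count small heat shock protein Hspb3 was at 218% and Hspb8 at 133%. Genes were tested with edgeR's quasi-likelihood fit, with p adjusted by Benjamini and Hochberg's method over all 14216 tested genes, and called at an adjusted p under 0.05. Of the 64 tested members, 38 (59.4%) were called, 19 higher and 19 lower. Among all tested genes 61.7% passed, 30.8% higher and 30.9% lower, so the share of changed members was near that background. The median log2 fold change of the members was 0.02, against 0.0043 for all tested genes, and the median absolute value was 0.24 against 0.34. A call together with a log2 fold change of 0.5 or more in size was reached by 11 members (8 higher, 3 lower) out of 64, against 31.0% of all tested genes. The control and knockdown libraries did not overlap for 38 of the 64, against 65.6% of all tested genes. With library totals in place of TMM factors, 43 members passed, and 62.8% of those were higher instead of 50%. The same scaling moved the higher share among all called genes from 50.0% to 55.8%. Summed over all 71 genes, the level was 9432 to 9922 CPM in controls and 8947 to 9148 CPM after knockdown, or 93.8% of the control mean. By family the sums ran from 84.7% (Dnaja) to 108% (Dnajc) of control, with Hspa at 101%. The 2 Hsp90 genes alone went from a mean of 3224 to 2765 CPM. As a share of library totals the groups overlapped, with members at 0.929% to 0.971% in controls and 0.905% to 0.932% after knockdown.

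Differences are given below as log2 fold changes, knockdown over control, wherever a signed value stands without a unit. Outside DNAJ, 11 of 24 tested genes (45.8%) were called (4 higher, 7 lower) with a median log2 fold change of -0.07. Of these, 2 reached 0.5 in size, Hspb3 and Hspb11, and both had few counts. Among DNAJ genes 27 of 40 (67.5%) were called (15 higher, 12 lower) with a median of 0.12, and 9 reached 0.5 or more. Among all tested genes 61.7% were called, and 31.0% were called with 0.5 or more in size. The difference between the DNAJ genes and the members outside DNAJ was not tested. The tested DNAJ genes had longer genomic spans, with a median of 27206.5 bases against 8725.5 bases outside DNAJ. The part of span in this difference was not tested either.

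**Figure D2:**
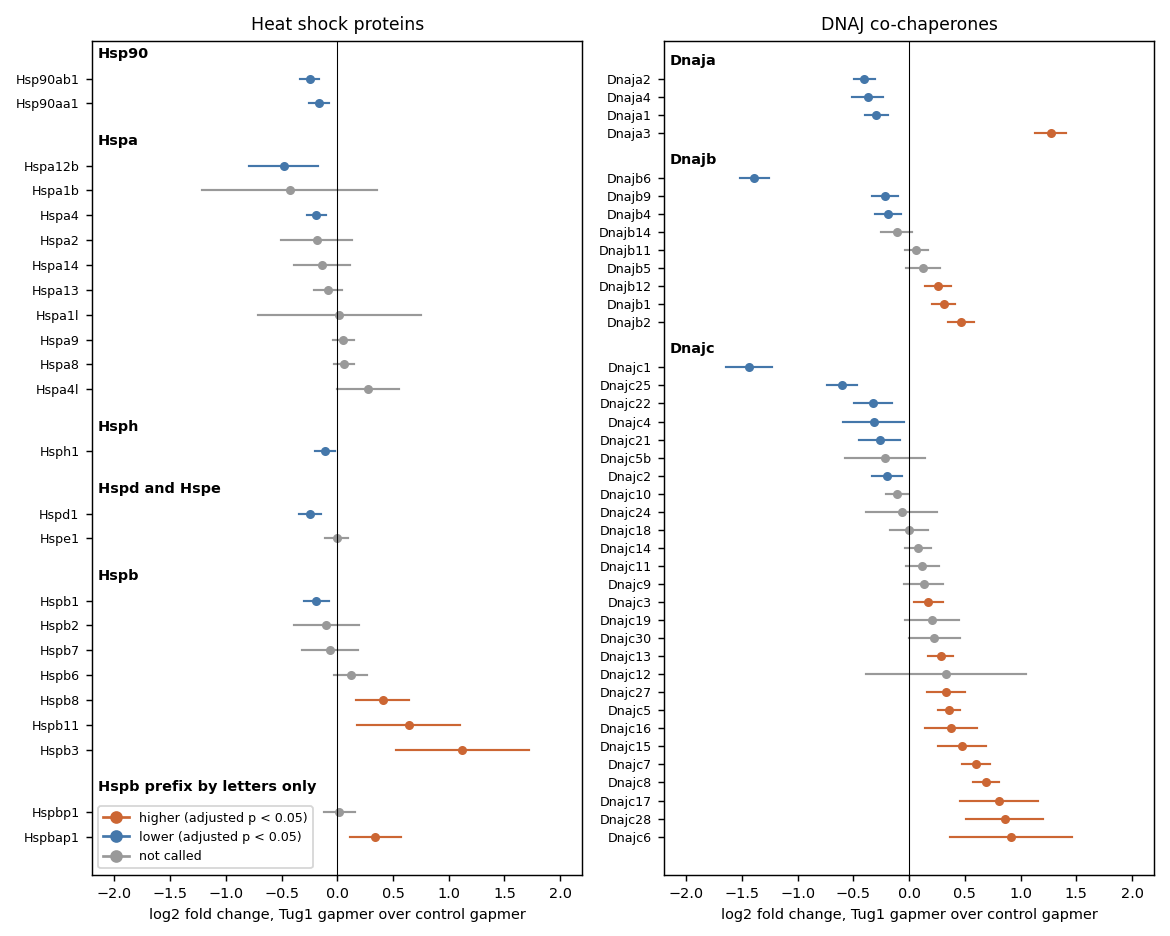
Log2 fold change (Tug1 gapmer over control gapmer) of the 64 tested members with 95% confidence intervals, by family, in orange where higher, blue where lower and grey where not called at an adjusted p of 0.05. Both Hsp90 genes lie below 0, the Hspa genes near it, and the longest distances are those of Dnaja3, Dnajb6 and Dnajc1.

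The cytosolic Hsp90 genes were both slightly lower. Hsp90ab1, the constitutive form, had 2173, 2258 and 2286 CPM in control replicates 1 to 3 and 1932, 1831 and 1899 CPM in knockdown replicates 1 to 3. The knockdown libraries all lay below the lowest control, and the log2 fold change was -0.25 ± 0.0406 (standard error; edgeR, adjusted p 1.50e-05). Hsp90aa1, the heat-inducible form, had 981, 942 and 1032 CPM in control replicates 1 to 3 and 870.5, 889 and 873 CPM in knockdown replicates 1 to 3, again without overlap. Its log2 fold change was -0.17 ± 0.0425 (standard error; edgeR, adjusted p 0.00169). With an offset for genomic length the difference of Hsp90aa1 was -0.05 (edgeR adjusted p 0.373) and no longer passed, and that of Hsp90ab1 was -0.12 and still passed. The summed level of both was 3154 to 3318 CPM in controls and 2719 to 2803 CPM after knockdown. The genes are close relatives, and how reads shared between them were counted was not stated.

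Of the 11 Hspa genes 10 were tested, and 2 were lower and none higher, against the 61.7% called among all tested genes. With library totals 3 were higher and 2 lower, and with the length offset 1 was higher and 2 were lower. At an unadjusted p under 0.05 the count was 3. Hspa8, the constitutive cytosolic Hsp70, had 1179, 1239.9 and 1293 CPM in control replicates 1 to 3 and 1341, 1269 and 1265 CPM in knockdown replicates 1 to 3. The groups overlapped, and its log2 fold change was 0.06 (95% interval -0.03 to 0.15, edgeR adjusted p 0.223). It passed as higher with library totals (0.12) and with the length offset (0.22). Hspa8 has processed copies in mammalian genomes, so its counts depend on how reads with several matches were treated. Hspa9, the mitochondrial Hsp70, was at 489.7 ± 17.5 CPM in the control group and 508 ± 22.2 CPM in the knockdown group (SD, n = 3 each), with a 95% interval of -0.04 to 0.15 for the log2 fold change, and passed as higher with library totals alone (0.11). The strongly heat-inducible Hsp70 gene Hspa1b was near the detection limit, with 9, 14 and 12 counts in controls and 9, 7 and 11 after knockdown. Its groups overlapped and its interval ran from -1.22 to 0.36. The near-identical Hspa1a had no row under that symbol in the count table, and reads of these copies may be split or lost in counting. Hspa1l, whose annotated span overlaps that of Hspa1a, was also scarce with 12, 12 and 12 counts in controls and 9, 13 and 16 after knockdown.

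Hspa4, an Hsp110-type exchange factor that reloads Hsp70 with ATP, had 399, 389.9 and 407 CPM in control replicates 1 to 3 and 343, 350.0 and 357 CPM in knockdown replicates 1 to 3. All knockdown libraries lay below all controls, and the log2 fold change was -0.19 ± 0.0427 (standard error; edgeR, adjusted p 0.000591). Its relative Hsph1 (Hsp105) had 474, 493 and 523 CPM in control replicates 1 to 3 and 476, 455 and 449.7 CPM in knockdown replicates 1 to 3, and knockdown replicate 1 lay within the control range. Hsph1 passed narrowly as lower at -0.11 ± 0.0454 (standard error; edgeR, adjusted p 0.0393). That call was lost when control replicate 2 (-0.12), control replicate 3 (-0.07), knockdown replicate 2 (-0.10) or knockdown replicate 3 (-0.09) was left out, with library totals (-0.06) and with the length offset (-0.08). The third gene of this type, Hspa4l, pointed the other way at 0.28 (95% interval 0.0014 to 0.56, edgeR adjusted p 0.0757) without passing. It passed as higher without control replicate 3 (0.43) or knockdown replicate 3 (0.37) and with library totals (0.33).

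Hspa12b, an atypical and distant relative, had 8.67, 6.97 and 7.79 CPM in control replicates 1 to 3 and 5.73, 6.14 and 4.91 CPM in knockdown replicates 1 to 3, and fell to 71.6% of control, a log2 fold change of -0.48 ± 0.149 (standard error; edgeR, adjusted p 0.00758). Hspa13, an Hsp70 relative of the endoplasmic reticulum, was at -0.08 (95% interval -0.21 to 0.05). Hspa14, which works at the ribosome with Dnajc2, was at -0.14 (-0.39 to 0.11), and Hspa2, best known from the testis, at -0.18 (-0.50 to 0.13). None of these 3 passed the threshold in any alternative tried, and their groups overlapped.

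The Hsp60 and Hsp10 subunits of the mitochondrial folding chamber, whose genes share a promoter region and a heat shock element, gave different values. Hspd1 (Hsp60) had 478, 491 and 542 CPM in control replicates 1 to 3 and 423, 419 and 437 CPM in knockdown replicates 1 to 3. All knockdown libraries lay below all controls, a log2 fold change of -0.24 ± 0.0475 (standard error; edgeR, adjusted p 0.000130). Hspe1 (Hsp10) had 149, 143 and 142 CPM in control replicates 1 to 3 and 149, 144 and 139 CPM in knockdown replicates 1 to 3, with overlapping groups, -0.01 (95% interval -0.11 to 0.10). The 2 intervals do not overlap, but the difference between the genes was not tested. The annotated spans of the genes overlap on opposite strands, and use of strand in counting was not stated. With the length offset Hspe1 passed as higher (0.17, edgeR adjusted p 0.00301), and with library totals its value was 0.05.

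Of the 8 Hspb genes 7 were tested, 3 higher and 1 lower, or 4 higher and 0 lower with the length offset. The share called was 57.1%, against 61.7% among all tested genes. Hspb3, a small heat shock protein of muscle, had the family's largest fold change at a low level, with 13, 14 and 16 counts in controls and 39, 36 and 23 after knockdown. All knockdown libraries lay above all controls, and the log2 fold change was 1.12 ± 0.289 (standard error; edgeR, adjusted p 0.00182), while the muscle markers given above also moved up and their part in this was not tested. Hspb8, which acts with Bag3 in the removal of damaged muscle proteins, had 10.7, 10.1 and 11.2 CPM in control replicates 1 to 3 and 15.5, 14.6 and 12.2 CPM in knockdown replicates 1 to 3, without overlap. It rose by a log2 fold change of 0.41 ± 0.115 (standard error; edgeR, adjusted p 0.00389). Hspb11, a subunit of the ciliary transport complex rather than a typical small heat shock protein, had 31, 36 and 25 counts in controls and 55, 56 and 39 after knockdown. It rose by a log2 fold change of 0.64 ± 0.223 (standard error; edgeR, adjusted p 0.0157), a call that was lost without control replicate 3 (0.52), without knockdown replicate 2 (0.56) and in DESeq2's Wald test (0.64).

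Hspb1 (Hsp27), an actin-protecting and heat-inducible small heat shock protein, was the lower one, with 372, 409.6 and 352 CPM in control replicates 1 to 3 and 346, 337 and 311 CPM in knockdown replicates 1 to 3. The groups did not overlap, and the log2 fold change was -0.19 ± 0.0533 (standard error; edgeR, adjusted p 0.00399). This very short gene changed sign under the length offset, at 0.03 (edgeR adjusted p 0.607). Hspb6 (Hsp20) was at 0.12 (95% interval -0.03 to 0.27), the cardiovascular Hspb7 at -0.07 (-0.32 to 0.19) and Hspb2, the partner of Hspb3, at -0.10 (-0.39 to 0.19), and none of these passed. Hspb6 passed as higher with library totals (0.17) and with the length offset (0.32). The annotated spans of Hspb2 and Cryab overlap, so their counts are uncertain. Of the genes that share only the letters, Hspbap1 rose by a log2 fold change of 0.34 ± 0.111 (standard error; edgeR, adjusted p 0.0108) and Hspbp1, an exchange factor for Hsp70, was at 0.02 (-0.12 to 0.16). The groups of Hspbap1 overlapped, and its call was lost without control replicate 2 (0.29), without knockdown replicate 3 (0.24) and with the length offset (0.24).

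**Figure D3:**
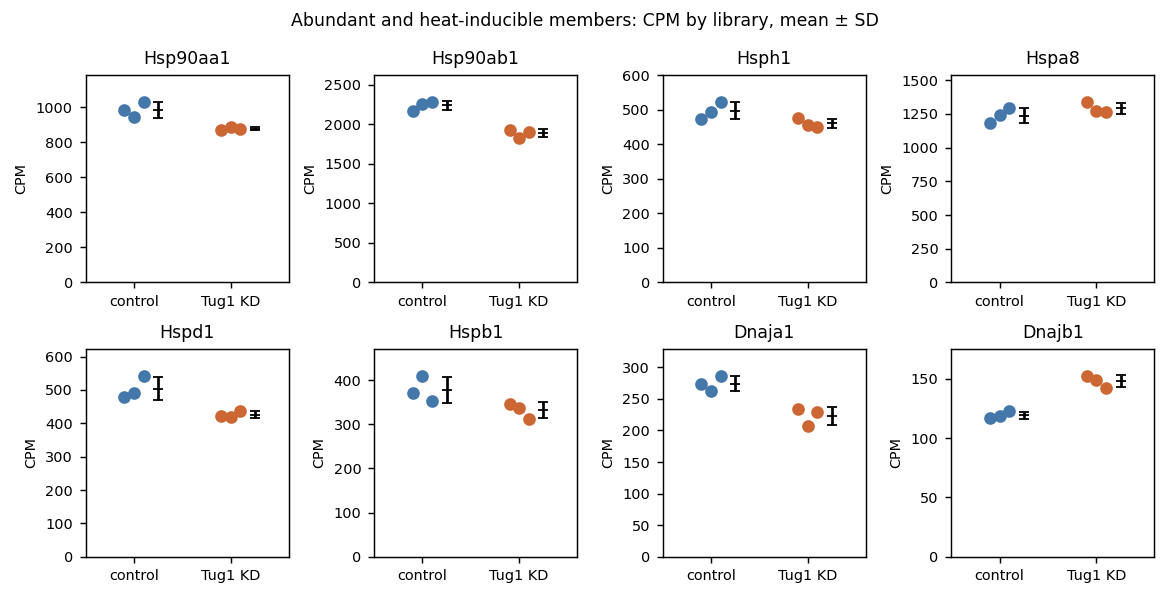
CPM of 8 abundant or heat-inducible members in each of the 6 libraries (points), with the mean and SD of each group (black) and vertical axes that start at 0. Dnajb1 is higher in every knockdown library, Hsp90aa1, Hsp90ab1, Hspd1, Hspb1 and Dnaja1 are lower, and the groups overlap for Hspa8 and Hsph1.

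All 4 Dnaja genes were called, against 61.7% of all tested genes, and the mitochondrial one moved against the other 3. Dnaja3, the J-domain partner of mitochondrial Hspa9, had 23.1, 22.9 and 23.5 CPM in control replicates 1 to 3 and 56.0, 55.9 and 55.8 CPM in knockdown replicates 1 to 3. The knockdown libraries lay close together, far above all controls, at 241% of the control mean. Its log2 fold change was 1.27 ± 0.0667 (standard error; edgeR, adjusted p 2.65e-13), the highest of all 64 tested members. The cytosolic class A genes were lower. Dnaja2 had 256, 255 and 265 CPM in control replicates 1 to 3 and 205, 190.1 and 192 CPM in knockdown replicates 1 to 3, a log2 fold change of -0.40 ± 0.0467 (standard error; edgeR, adjusted p 1.08e-07). Dnaja1, the heat-inducible one, had 273, 262 and 286 CPM in control replicates 1 to 3 and 234, 207 and 229 CPM in knockdown replicates 1 to 3, a log2 fold change of -0.29 ± 0.0513 (standard error; edgeR, adjusted p 3.04e-05). Dnaja4, which was at 61.9 ± 3.07 CPM in the control group and 47.7 ± 3.93 CPM in the knockdown group (SD, n = 3 each), was also lower, with a log2 fold change of -0.37 ± 0.0667 (standard error; edgeR, adjusted p 4.04e-05). None of these 3 genes had overlapping groups, and the 4 calls held in every alternative tried.

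Of the 13 Dnajb genes 9 were tested, 3 higher and 3 lower, or 5 higher and 3 lower with library totals. With TMM factors 66.7% were called, near the 61.7% among all tested genes. Dnajb6, a suppressor of protein aggregation, had 93.3, 93.4 and 104 CPM in control replicates 1 to 3 and 39.3, 35.3 and 36.4 CPM in knockdown replicates 1 to 3. The knockdown libraries were at 38.2% of the control mean, and the log2 fold change was -1.39 ± 0.0639 (standard error; edgeR, adjusted p 3.07e-14). It is a long gene, and with the length offset it was lower still, at -1.72. Pseudogenes and, on the opposite strand, a long non-coding RNA overlap its annotated span, and their share in its counts was not tested. Dnajb1, the main heat-inducible Hsp40, went the other way, with 117, 118 and 123 CPM in control replicates 1 to 3 and 152, 149 and 143 CPM in knockdown replicates 1 to 3. Its groups did not overlap, and the log2 fold change was 0.31 ± 0.050 (standard error; edgeR, adjusted p 1.09e-05).

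Dnajb2, which links Hsp70 clients to ubiquitin, rose by a log2 fold change of 0.46 ± 0.0548 (standard error; edgeR, adjusted p 1.38e-07), and Dnajb12, a membrane protein of the endoplasmic reticulum, by 0.26. Dnajb12 was at 72.3 ± 2.28 CPM in the control group and 86.3 ± 4.39 CPM in the knockdown group (SD, n = 3 each). Dnajb9, a stress-induced protein of the reticulum lumen, was lower at -0.22, as was the cytosolic Dnajb4 at -0.19. Dnajb9 was at 94.5 ± 4.42 CPM in the control group and 81.3 ± 2.68 CPM in the knockdown group (SD, n = 3 each), and Dnajb4 at 87.6 ± 2.03 CPM in the control group and 76.8 ± 4.13 CPM in the knockdown group (SD, n = 3 each). In each of these 4 called genes the control and knockdown libraries did not overlap, as in 65.6% of all tested genes. Dnajb11 of the reticulum lumen (0.06, 95% interval -0.04 to 0.16), Dnajb5 (0.13, -0.03 to 0.28) and Dnajb14 (-0.11, -0.26 to 0.03) did not pass, although every knockdown library of Dnajb14 was below the controls. Dnajb5 and Dnajb11 passed as higher with library totals (0.18 and 0.12). Dnajb5 also passed with the length offset (0.22), and Dnajb14 passed as lower with the length offset (-0.19).

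**Figure D4:**
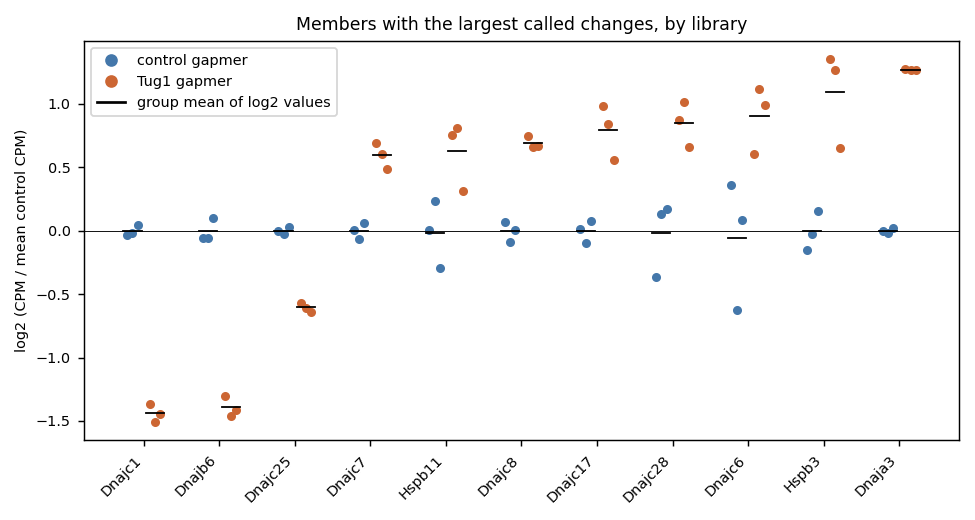
Log2 ratio of each library's CPM to the mean control CPM for the 11 members called with a log2 fold change of 0.5 or more in size (points are libraries, black bars group means of the log2 values). In each of the 11 genes the knockdown libraries lie on 1 side of all control libraries, as in 65.6% of all tested genes. The genes were picked by their change in these same libraries, so this separation adds no support to their calls. Libraries lie closest together for Dnaja3.

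Dnajc was the largest family, with 28 genes, 27 tested, 11 higher and 6 lower, or 13 higher and 4 lower with library totals. The share called was 63.0%, near the 61.7% among all tested genes. The lowest log2 fold change of all members was that of Dnajc1, a J-domain protein of the reticulum membrane that touches the ribosome. Dnajc1 had 22.7, 22.9 and 23.9 CPM in control replicates 1 to 3 and 8.99, 8.14 and 8.53 CPM in knockdown replicates 1 to 3, which is 36.9% of control and a log2 fold change of -1.44 ± 0.0988 (standard error; edgeR, adjusted p 2.20e-11). Like Dnajb6 it is a long gene that lay further down with the length offset (-1.71), and its span holds other non-coding transcripts. Dnajc25, a membrane-bound J-domain protein, had 47.9, 46.9 and 48.8 CPM in control replicates 1 to 3 and 32.3, 31.4 and 30.7 CPM in knockdown replicates 1 to 3, and fell, with a log2 fold change of -0.60 ± 0.0656 (standard error; edgeR, adjusted p 3.91e-08). Neither gene had overlapping groups. The chaperones of the reticulum did not all move this way, as Dnajc3, an inhibitor of the stress kinase PERK, rose by a log2 fold change of 0.17 ± 0.0628 (standard error; edgeR, adjusted p 0.0234) and the disulfide reductase Dnajc10 did not pass at -0.11 (edgeR adjusted p 0.0523), with all its knockdown libraries below the controls. The call of Dnajc3 was lost without control replicate 1 (0.15) or 2 (0.13), without knockdown replicate 1 (0.15) or 3 (0.16), in DESeq2's Wald test (0.17) and with the length offset (0.10). Dnajc10 passed as lower without control replicate 1 (-0.14) or 2 (-0.13), with the replicate block (-0.11) and with the length offset (-0.18).

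The largest rises in the Dnajc family included 2 spliceosome-linked proteins. Dnajc8 had 66.0, 59.2 and 63.2 CPM in control replicates 1 to 3 and 105, 99.2 and 99.8 CPM in knockdown replicates 1 to 3, a log2 fold change of 0.69 ± 0.0570 (standard error; edgeR, adjusted p 4.50e-10). Dnajc17 had 50, 46 and 52 counts in controls and 104, 92 and 74 after knockdown, a log2 fold change of 0.81 ± 0.169 (standard error; edgeR, adjusted p 0.000261). In neither gene did the groups overlap. Dnajc7, which carries clients between Hsp70 and Hsp90, had 61.6, 58.7 and 63.9 CPM in control replicates 1 to 3 and 99.0, 93.5 and 85.9 CPM in knockdown replicates 1 to 3, and rose by a log2 fold change of 0.60 ± 0.0609 (standard error; edgeR, adjusted p 1.42e-08). Dnajc6, the clathrin-uncoating auxilin, was scarce with 28, 14 and 23 counts in controls and 35, 49 and 44 after knockdown. It rose by a log2 fold change of 0.92 ± 0.264 (standard error; edgeR, adjusted p 0.00447), and with the length offset and the replicate block together it was at 0.64 (edgeR adjusted p 0.0510) and lost the call. Dnajc28 had 43, 60 and 62 counts in controls and 107, 116 and 89 after knockdown, a log2 fold change of 0.86 ± 0.168 (standard error; edgeR, adjusted p 0.000118). Its span overlaps that of Son on the opposite strand, and Dnajc17 and Dnajc7 also overlap other genes on the opposite strand, so without a stated use of strand their counts are uncertain.

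Smaller rises were found in Dnajc15, a mitochondrial import protein, at 0.47, Dnajc16 at 0.38, Dnajc5, the cysteine string protein of secretory vesicles, at 0.36 ± 0.0482 (standard error; edgeR, adjusted p 1.05e-06), Dnajc27 at 0.33 and Dnajc13, an endosomal protein, at 0.28. Dnajc15 was at 16.8 ± 0.399 CPM in the control group and 23.3 ± 3.79 CPM in the knockdown group (SD, n = 3 each), without overlap. Dnajc13 was at 76.8 ± 1.69 CPM in the control group and 93.3 ± 4.64 CPM in the knockdown group (SD, n = 3 each), also without overlap. The long gene Dnajc13 lost its call with the length offset (0.07). Lower were Dnajc22 at -0.32, Dnajc4 at -0.32 and the ribosome-linked Dnajc21 and Dnajc2 at -0.27 and -0.20. Dnajc22 was at 37.2 ± 3.10 CPM in the control group and 29.7 ± 2.87 CPM in the knockdown group (SD, n = 3 each), without overlap. Dnajc4 was at 11.6 ± 0.874 CPM in the control group and 9.31 ± 1.64 CPM in the knockdown group (SD, n = 3 each), with overlapping groups. Dnajc4 passed in 7 of 16 alternatives, and without control replicate 1 (-0.29) or 3 (-0.28), or without knockdown replicate 1 (-0.19) or 3 (-0.33), it did not. Dnajc21 did not pass without control replicate 3 (-0.16), nor Dnajc2 without knockdown replicate 1 (-0.15) or with library totals (-0.14).

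The other 9 tested Dnajc genes did not pass, with log2 fold changes from -0.22 (Dnajc5b) to 0.33 (Dnajc12). Among them were the mitochondrial import and membrane proteins Dnajc19 (0.21, 95% interval -0.04 to 0.45) and Dnajc11 (0.12, -0.03 to 0.27), mitochondrial Dnajc30 (0.23, -0.0044 to 0.46) and the histone chaperone Dnajc9 (0.13, -0.05 to 0.31). Dnajc14 was at 0.08, Dnajc18 at -0.0022 and Dnajc24, an enzyme-assisting protein of diphthamide synthesis, at -0.07. The knockdown libraries of Dnajc19 all lay above the controls. Dnajc30 passed as higher without control replicate 3 (0.35), with library totals (0.28) and with the length offset (0.47). Dnajc11 passed as higher without control replicate 2 (0.18) and with library totals (0.17), and Dnajc14 with the length offset (0.14). The 7 members not tested were Hspa12a, Hspb9, Dnajb3, Dnajb7, Dnajb8, Dnajb13 and Dnajc5g. None had more than 6 counts in any library, and Dnajb8 had 0 in all 6, so no difference could be detected for them at this depth.

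Other genes of the chaperone network were read from 6 lists written from general knowledge. The lists share genes, so their counts are not separate. Ahsa1, Cacybp, Chordc1, Fkbp4, Ppid, Ptges3 and Stip1 are listed both as HSF1 targets and as Hsp90 co-chaperones. Bag3, Cct2 and Cryab are HSF1 targets that also stand on another list, and the member Hspbp1 is also listed as an Hsp70 co-chaperone. Of 27 tested HSF1 targets, 14 of them members, 19 were called, 4 higher and 15 lower, against 30.8% higher and 30.9% lower among all tested genes. Their median log2 fold change was -0.17. This balance depended on the scaling, with 8 higher and 12 lower with library totals (median -0.11) and 9 higher and 10 lower with the length offset (median -0.05). Chordc1, an Hsp90 co-chaperone, moved furthest up in this list, with 30.6, 26.7 and 32.9 CPM in control replicates 1 to 3 and 100.1, 93.1 and 97.2 CPM in knockdown replicates 1 to 3, a log2 fold change of 1.69 ± 0.0681 (standard error; edgeR, adjusted p 3.16e-15). Cacybp, which binds calcyclin and was also listed as an Hsp90 co-chaperone, was lower at -0.64 ± 0.0489 (standard error; edgeR, adjusted p 1.11e-10). Among the higher targets were also Dnajb1, Hspb8 and Bag3 (0.22), the partner of Hspb8, and the small heat shock protein Cryab was lower at -0.18 ± 0.0560 (standard error; edgeR, adjusted p 0.00788). The call of Cryab was lost without knockdown replicate 2 (-0.14), with library totals (-0.13) and with the length offset (-0.05). The targets thus moved in both directions, with Dnajb6 at -1.39 and Chordc1 at 1.69 at the ends.

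Of 10 tested heat shock factors and regulators 8 were called, 3 higher and 5 lower, with a median of -0.08. Among all tested genes 61.7% were called. Hsf1 had 55.2, 52.8 and 52.8 CPM in control replicates 1 to 3 and 59.4, 66.2 and 61.5 CPM in knockdown replicates 1 to 3, and rose by a log2 fold change of 0.22 ± 0.0605 (standard error; edgeR, adjusted p 0.00335). Hsf2, a second heat shock factor, was lower at -0.46 ± 0.0565 (standard error; edgeR, adjusted p 2.19e-07). Hsf4 had 42, 54 and 50 counts in controls and 123, 115 and 134 after knockdown, a log2 fold change of 1.29 ± 0.155 (standard error; edgeR, adjusted p 1.90e-07). Gsk3b, a kinase that phosphorylates HSF1, was at 0.89 and the deacetylase Sirt1 at -0.78, both past the threshold.

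Of 15 tested co-chaperones of Hsp70 outside DNAJ, 3 were higher and 8 lower, with a median of -0.18. Among all tested genes 61.7% were called, 30.8% higher and 30.9% lower. The higher co-chaperones were Bag3 (0.22), Sgta (0.21) and Bag6 (0.18). Bag1 (-0.47), Bag2 (-0.38), the mitochondrial exchange factor Grpel1 (-0.37) and the ubiquitin ligase Stub1 (-0.37) were among the lower ones, and Stub1 lost its call with the length offset (-0.17). Of 22 tested Hsp90 co-chaperones 7 were higher and 7 lower (63.6% called), with a median of 0.08. With library totals 9 were higher and 5 lower, and with the length offset 12 were higher and 5 lower. Trap1, the mitochondrial Hsp90 kept in this list, had 29.2, 25.0 and 28.4 CPM in control replicates 1 to 3 and 54.5, 59.0 and 58.6 CPM in knockdown replicates 1 to 3, and rose by a log2 fold change of 1.06 ± 0.0714 (standard error; edgeR, adjusted p 1.66e-11). Cdc37, which loads kinases onto Hsp90, was lower at -0.13, and Stip1, which bridges Hsp70 and Hsp90, did not pass at 0.10 (edgeR adjusted p 0.0654). The call of Cdc37 was lost without control replicate 2 (-0.11), without knockdown replicate 3 (-0.11), with library totals (-0.07) and with the length offset (-0.06). Stip1 passed as higher without knockdown replicate 2 (0.14), with library totals (0.15), with the length offset (0.13) and with the replicate block (0.10).

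Of 13 tested genes of the TRiC chaperonin, which folds actin and tubulin, and of its feeder prefoldin, 1 was higher and 8 were lower, with a median of -0.21. With the length offset 3 were higher and 8 lower. Among all tested genes, without that offset, 30.8% were higher and 30.9% lower. Of the tested chaperonin subunits, Tcp1, Cct2, Cct4, Cct5, Cct6a and Cct7 were lower, Cct3 did not pass at -0.10, and Cct8 alone was higher. Cct8 had 211, 206 and 217 CPM in control replicates 1 to 3 and 310.0, 309 and 322 CPM in knockdown replicates 1 to 3. Tcp1 had 229.8, 228 and 239 CPM in control replicates 1 to 3 and 164, 167 and 165 CPM in knockdown replicates 1 to 3. Their log2 fold changes were 0.57 ± 0.0449 (standard error; edgeR, adjusted p 2.12e-10) and -0.49 ± 0.0456 (standard error; edgeR, adjusted p 2.99e-09), and Cct6a was lower at -0.39. Among 5 tested J-domain and small heat shock genes under other symbols, 2 were higher and 2 lower, or 2 and 1 with library totals and 1 and 2 with the length offset. The auxilin relative Gak was higher at 0.18, a call lost with the length offset (0.04), and Sec63, a J-domain protein of the reticulum translocon, was lower at -0.19. With knockdown replicate 2 left out, 2 of the 5 passed.

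**Figure D5:**
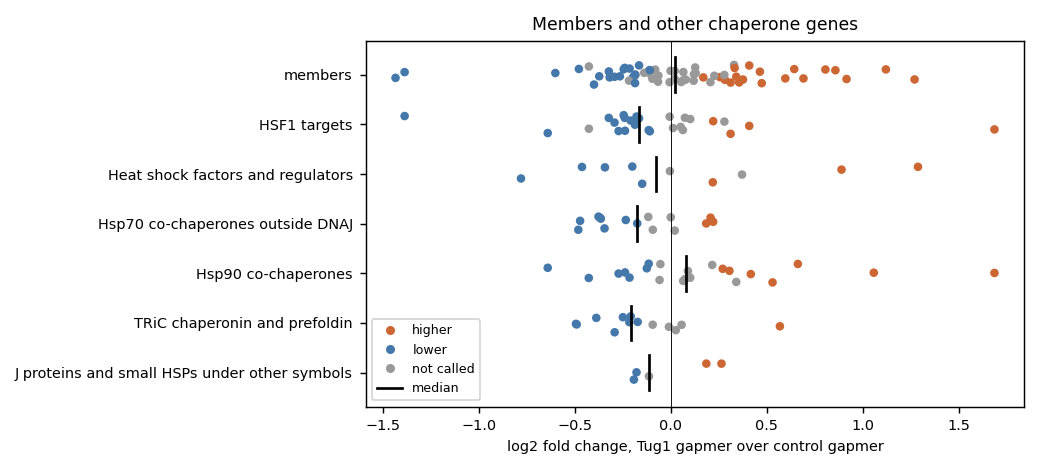
Log2 fold change (Tug1 gapmer over control gapmer) of each tested gene in the members and in the 6 chaperone lists, coloured by call, with the median of each list as a black bar (points are spread vertically at random for legibility). Every list holds higher and lower genes, and the medians lie between -0.21 and 0.08. Some genes appear in several of these sets.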

How the data were processed

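Expression was compared in 3 control and 3 Tug1 knockdown libraries of rat H9c2 cells. The deposited table holds raw counts by gene symbol, whole numbers, unscaled and with no replicates pooled, as the values show. FastQC 0.11.7, fastp 0.14.1 and STAR 2.5 are named in the submitters' processing notes. Counting tool, build, annotation, strand setting and treatment of shared reads are not given in the sources used here. From the counts, edgeR 4.0.16 (R 4.3.3) filtered genes (filterByExpr, minimum count 10, minimum total 15), scaled by TMM and fitted the two-sided quasi-likelihood test across 14216 genes without a block. Genes passed at a Benjamini-Hochberg adjusted p under 0.05. SDs are between libraries. Standard errors are the size of the log2 fold change divided by the square root of the test's F statistic. The 95% intervals were built from them with the model's degrees of freedom, so neither is separate from the p-value.

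Members and lists were chosen with earlier results of these data known. Named by rule were Tug1, all tested members outside DNAJ, called DNAJ genes with a log2 fold change of 0.5 or more in size, 7 DNAJ genes of general interest, and in each list the 3 called genes with the smallest p plus 8 fixed genes. Remaining DNAJ genes were named after their values were seen. The alternatives were DESeq2 size factors, library totals, DESeq2 1.42.0, limma-voom (limma 3.58.1), 2 other filters (at least 1 count in total, a mean of at least 1 CPM), an adjusted p under 0.01, a replicate block, each library left out, and a length offset (lowess on log2 genomic span, GRCr8 table, span 0.3), alone and with the block. Scripts were tested on simulated data. A planned search of protein sequences for the J-domain HPD motif and the C-terminal EEVD was not run, as no protein sequences were used here. Pairs of libraries within a group differed by more than sampling noise (chi-square per degree of freedom 2.18 to 3.60), so none was counted as a repeat.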

Additional observations from a re-analysis of the deposited data

How the results depend on the processing

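Of the 38 called members, 27 passed in all 16 alternatives and 11 lost the call in at least 1, while 12 of the 26 others passed in at least 1. The count of called members ran from 31 (adjusted p under 0.01) to 43 (library totals), and without single libraries from 35 to 37. Tug1 stayed between -2.22 and -2.08. The length offset and library totals changed most calls. With the length offset, both with and without the replicate block, 1 of 2 Hsp90 genes passed, 2 of 2 Hspd and Hspe genes passed and 0 Hsph genes passed. Of the 2 genes sharing only the letters Hspb, 0 passed with the length offset alone and 0 at an adjusted p under 0.01. With library totals 5 Hspa genes and 0 Hsph genes passed, and at an adjusted p under 0.01 0 Hsph genes passed. Counts without single libraries ran from 0 to 1 for Hsph, from 0 to 1 for those 2 genes and from 2 to 5 for J-domain and small heat shock genes under other symbols.

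Signs turned as follows, and apart from Hspb1, called lower in the fit reported above, none of these genes was called there. With the length offset, without and with the block, values were 0.0283 and 0.0293 for Hspb1, 0.123 and 0.125 for Hspb2, 0.102 and 0.0988 for Hspb7, 0.170 and 0.171 for Hspe1, and with the block 0.00327 for Hspa2. Library totals gave 0.0459 for Hspe1 and 0.0508 for Dnajc18, and limma-voom -0.0250 for Hspa1l. Leaving out a library gave ranges of -0.194 to 0.229 for Hspa1l, -0.212 to 0.0468 for Hspb2, -0.223 to 0.0217 for Hspb7, -0.0232 to 0.0701 for Hspbp1, -0.0330 to 0.0212 for Hspe1, -0.0464 to 0.0317 for Dnajc18 and -0.110 to 0.00234 for Dnajc24. The cause was not tested.

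Libraries with the same replicate number did not vary together, the correlation across genes of their distances from the group mean being -0.00531, 0.0298 and 0.0270 for numbers 1 to 3. With the number as a replicate block 39 members and 8848 of all genes passed, and Tug1 was at -2.19. Among members the block changed the call of Dnajc10 alone, and on the lists that of Stip1 among named genes. Depth limits genes near 1 CPM, such as Hspa1b, Hspa1l and Hspb3.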
